A study of Mus musculus with 8 samples.

Results

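Interferon response genes are genes that cells switch on after interferons bind their receptors. A list of 39 of them, all found among the 23091 genes of the tables, was followed here through single cells of the mouse yolk sac. The members were named from a list of interferon-induced genes with no threshold on their values, but with earlier results of these data known. For each, the level in every library was taken from wells that held at least 1000 transcripts. The wells were then split by the transcripts of S100a8, Ly6c2 or Ccr2, Apoa1, Cx3cr1 and Kit.

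Wild-type C57BL/6N mice gave the cells, at embryonic day 9.5 and with no treatment, from the extraembryonic part of the yolk sac. Both groups were stained for CD45 and CD11b, and CD45-positive cells were placed singly into wells. The 4 A1/A2 libraries hold A1 and A2 cells, the successive stages on the path from progenitor to macrophage. The 4 EMP libraries hold erythromyeloid progenitors, the bipotent cells from which A1 cells arise, which per the labels were run alongside and not used in the published work. No label tells A1 from A2 cells within these libraries. The labels give all 8 libraries 1 batch and do not say which embryos or litters went into each, so the p-values measure the spread between libraries, which may in part be technical. All libraries use the same set of well barcodes, and 0 pairs of kept wells held identical values.

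Of 768 wells in each group, 568 A1/A2 wells and 655 EMP wells were kept. The kept wells of a library summed to between 2558197 and 3559612 transcripts in the A1/A2 libraries and between 3888853 and 5418136 in the EMP libraries. Kept wells were deeper in the EMP group by their median, with 20368 transcripts against 6153. The 10 macrophage markers summed to between 6.87 and 9.19 per 10000 transcripts in the A1/A2 libraries and between 0.578 and 0.948 in the EMP libraries. The 10 progenitor markers summed to between 1.69 and 3.05 in the A1/A2 libraries and between 3.06 and 5.95 in the EMP libraries, in the direction the labels give. Yolk sac endoderm markers, which sorted blood cells should lack, were present in both, at 90.9 to 156 and at 160 to 245 per 10000. Erythroid markers ran from 7.64 to 74.5 in the A1/A2 libraries and from 23.2 to 68.5 in the EMP libraries. Endothelial markers ran from 0.807 to 1.05 and from 2.14 to 4.56.

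Type I and type III interferons act through Jak kinases on a complex of factors that includes Stat2 and Irf9 and binds an element in the promoters of target genes called the interferon-stimulated response element. The products sense foreign RNA, degrade it, block its translation or keep viruses out of the cell. Many of the same genes are also held at a low level in resting macrophages, and the Ifitm genes are expressed in germ cells and progenitors without interferon.

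The promoters of the members were searched for elements that answer to interferon. The table of RefSeq promoters (GRCm38.p6) had an entry for 31 of the 39 members, and the 250 bases before the start of the gene were searched. The core of the response element, which is GAAA, then NN for any bases, then GAAA again, searched on both strands with overlapping matches counted, was found in 12 of the 31 (38.7%). It was found in 3.46% of all 27025 genes of that table. Among genes induced mainly by type II interferon, 8 of 11 with an entry held it (72.7%). Of 26 further interferon-induced genes with an entry, 5 did (19.2%). A second element of interferon target genes, the gamma-activated site TTCNNNGAA, was found in 7 of the 31 (22.6%) against 8.13% of all genes. Among the 20 members called higher in the A1/A2 libraries below, 16 had an entry and 7 of these held the core: Stat2, Bst2, Ifit1, Ifit3, Isg15, Trim30a and Ifi205. Of the members tested and not called, 2 of 8 held it, and of those too rare to test, 3 of 7 with an entry. The sequences of Isg15, Ifit1 and Bst2 are shown as examples with 2 or 3 matches each, and that of Irf7 because it has none while the gene is among those that differ most. Each is 250 bases, 5′ to 3′ on the strand of its gene, and capitals mark the matches. Isg15 lies at chr4:156200819-156201068 on the minus strand, with 3 overlapping matches. Ifit1 lies at chr19:34640639-34640888 on the plus strand, with 2 matches that read as the core on the other strand. Bst2 lies at chr8:71537473-71537722 on the minus strand, with 2 overlapping matches. Irf7 lies at chr7:141266425-141266674 on the minus strand. A match describes these letters only, and the absence of one in this window says nothing of the factors that bind there.
Isg15: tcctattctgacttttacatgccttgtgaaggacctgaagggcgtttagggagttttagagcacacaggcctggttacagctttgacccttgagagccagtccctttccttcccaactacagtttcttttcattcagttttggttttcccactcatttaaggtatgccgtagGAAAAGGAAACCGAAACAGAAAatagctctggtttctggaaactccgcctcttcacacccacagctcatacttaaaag
Ifit1: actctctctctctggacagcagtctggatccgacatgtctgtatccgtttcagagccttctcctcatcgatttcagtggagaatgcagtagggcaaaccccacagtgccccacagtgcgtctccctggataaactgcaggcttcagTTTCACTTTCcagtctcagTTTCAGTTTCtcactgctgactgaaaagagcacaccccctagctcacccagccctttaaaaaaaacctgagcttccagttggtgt
Bst2: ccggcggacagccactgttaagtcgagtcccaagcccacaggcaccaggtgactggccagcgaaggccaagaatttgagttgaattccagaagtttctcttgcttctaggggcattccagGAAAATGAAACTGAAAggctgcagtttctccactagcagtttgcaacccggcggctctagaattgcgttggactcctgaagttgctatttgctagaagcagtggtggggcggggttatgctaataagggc
Irf7: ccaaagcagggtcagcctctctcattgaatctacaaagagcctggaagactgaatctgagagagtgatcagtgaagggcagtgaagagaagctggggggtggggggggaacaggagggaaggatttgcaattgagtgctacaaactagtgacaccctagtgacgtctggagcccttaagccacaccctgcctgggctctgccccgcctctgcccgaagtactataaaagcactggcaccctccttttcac

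The members together made up a larger share of the transcripts in every A1/A2 library than in any EMP library. Per 10000 transcripts they summed to 6.19, 4.89, 9.35 and 5.68 in A1/A2 libraries 1 to 4 and to 2.38, 1.89, 2.42 and 2.51 in EMP libraries 1 to 4. The means were 6.53 ± 1.96 (SD, n = 4) and 2.30 ± 0.282 (SD, n = 4). Library 3 was the highest of the A1/A2 group and the lowest was library 2, and the groups did not overlap. Without the 4 Ifitm genes, which are often expressed without interferon, the means were 5.23 ± 1.88 and 1.70 ± 0.111. No test was made of this sum, because the list was drawn up with earlier results of these data known. In sums over wells, more cells that express a gene and more RNA per cell cannot be told apart.

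**Figure D1:**
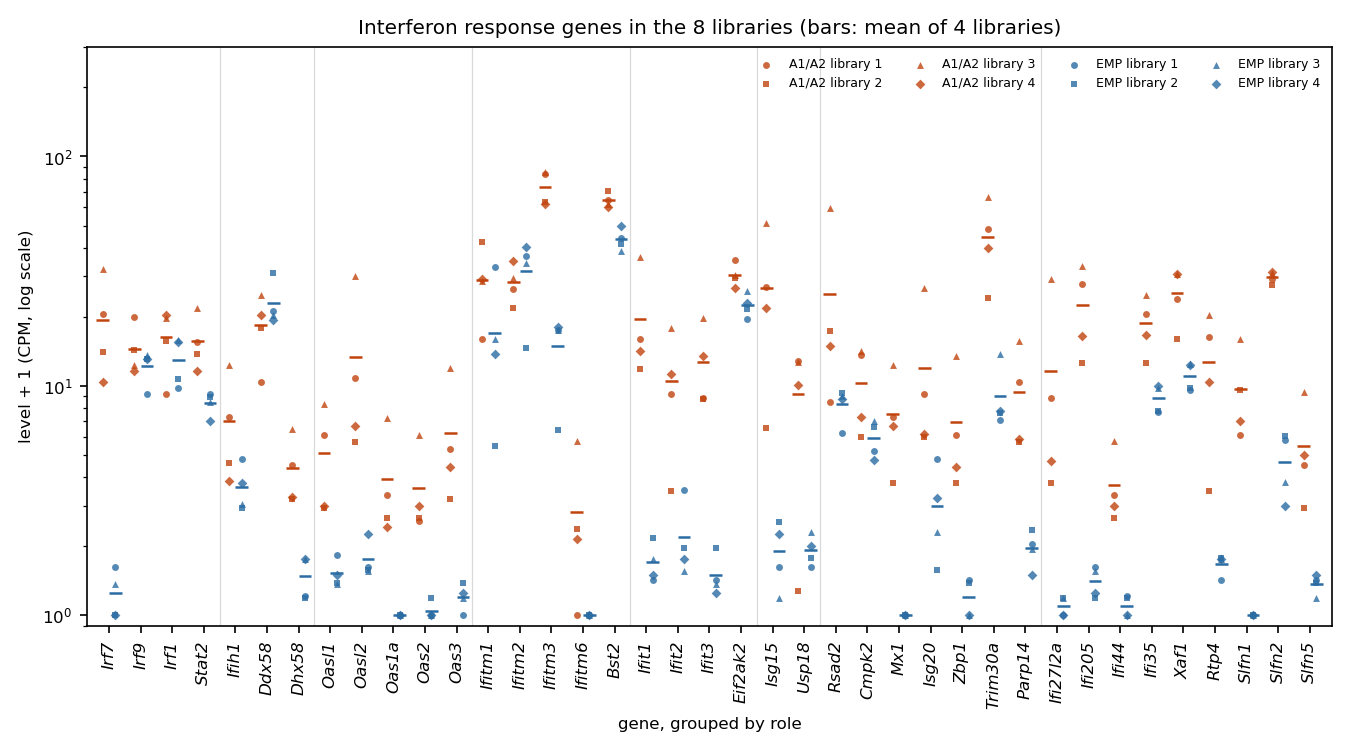
Level of each of the 39 genes in the 8 libraries, as CPM (transcripts of the gene per 1000000 transcripts of the library, after scaling) plus 1 on a log axis; points are libraries, short bars are the mean of 4, and grey lines separate the roles in the order of the text. The A1/A2 points lie above all EMP points for 28 genes, while Ifitm2 and Ddx58 overlap.

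Sums per library were compared between the groups with edgeR's quasi-likelihood test and Benjamini-Hochberg adjustment over all genes tested. Levels below are transcripts per 1000000 of the library after edgeR's TMM scaling (CPM), and a gene is called at an adjusted p under 0.05. Of the 39 members, 20 were called higher in the A1/A2 libraries, 0 were called lower, 8 were tested and not called, and 11 had too few transcripts to be tested. Of all 11144 genes tested, 17.3% were called higher and 15.4% lower. A member that is rare in the EMP libraries could enter the test only through its A1/A2 level, so the 28 tested members are not a fair sample of the list. Without that filter, 32 of the 39 were called higher, where 9.28% of 23063 genes were called higher. For 28 of the 39, every A1/A2 library lay above every EMP library. Among the 28 tested members this held for 20, as it did for 17.4% of the genes tested. The median of all genes tested differed by a log2 of -0.02, so the scaling is centred.

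The 4 regulators divided evenly between called and not called. Irf7, the factor that amplifies the interferon response, stood at 19.7, 13.02, 31.2 and 9.43 CPM in A1/A2 libraries 1 to 4 and at 0.631, 0, 0.376 and 0 in EMP libraries 1 to 4. The groups were far apart, and the EMP levels rest on 5 transcripts in all against 215. The log2 fold change of Irf7 was 5.96 (SE 0.623, edgeR adjusted p = 6.81e-05). Stat2, a subunit of the factor that binds the response element, was higher by a log2 of 0.96 (SE 0.228, edgeR adjusted p = 0.00748), at 14.7 ± 4.46 against 7.42 ± 0.981 CPM (SD, n = 4). Irf9, the DNA-binding partner of Stat2, stood at 13.5 ± 3.74 against 11.2 ± 2.03 CPM, and its groups overlapped. Irf1 stood at 15.3 ± 5.12 against 12.0 ± 3.15 CPM, also with overlap.

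None of the 3 cytosolic RNA sensors was called in this fit. Ddx58, which encodes the sensor RIG-I, was read at 9.44, 16.9, 23.9 and 19.4 CPM in the A1/A2 libraries and at 20.2, 29.9, 19.3 and 18.3 in the EMP libraries. The groups overlapped, and the log2 fold change was -0.33 (SE 0.244, edgeR adjusted p = 0.317). Ifih1, which encodes MDA5, stood at 6.03 ± 3.86 against 2.64 ± 0.844 CPM, with overlap, a log2 fold change of 1.15 (SE 0.433, edgeR adjusted p = 0.0583). Ifih1 was called higher with DESeq2, with no filter on rare genes and without A1/A2 library 2 or 4. Dhx58, which encodes their partner LGP2, was not tested at 40 against 9 transcripts, although all 4 A1/A2 libraries lay above the EMP libraries, and with no filter it was called higher (log2 fold change 2.69, edgeR adjusted p = 6.18e-05).

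The 5 genes of the oligoadenylate synthetase family make or resemble the enzymes that activate RNase L to cut RNA. All 5 were at low levels, with group means of 2.59 to 12.3 CPM in the A1/A2 libraries and 0 to 0.758 in the EMP libraries. Oasl2 was the 1 member of the family abundant enough to be tested. It stood at 9.83, 4.71, 29.0 and 5.71 CPM in the A1/A2 libraries and between 0.564 and 1.25 in the EMP libraries, with library 3 far above the other A1/A2 libraries. The log2 fold change was 3.98 (SE 0.691, edgeR adjusted p = 0.00208). Oas1a gave 34 transcripts in the A1/A2 group against 0 in the EMP group. Set against a floor of 3 transcripts over the EMP group, the pooled level of Oas1a was at least 18.0-fold higher. This bound, and those below on the same floor, limit the EMP side only. They leave out counting error and spread in the A1/A2 libraries. Oas2 gave 31 transcripts against 1, a ratio of 49.2 with an exact 95% counting interval of 8.20 to 2005 that covers counting error only. Oasl1 and Oas3 gave 47 against 10 and 61 against 4 transcripts, and for both the A1/A2 libraries were all above the EMP libraries.

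The membrane proteins that block entry or release of viruses included the highest levels of the list. Ifitm3, which traps viruses in endosomes, stood at 83.0, 62.3, 84.4 and 61.1 CPM in the A1/A2 libraries and at 16.6, 5.44, 16.5 and 17.1 in the EMP libraries. Every A1/A2 library was above every EMP library, and the log2 fold change was 2.39 (SE 0.283, edgeR adjusted p = 0.000267). Ifitm2 and Ifitm1, from the same cluster of genes, were not called, and their difference from Ifitm3 was not tested. Ifitm2 stood at 25.6, 20.8, 28.6 and 34.0 CPM in the A1/A2 libraries and at 36.0, 13.6, 33.4 and 39.1 in the EMP libraries. The groups overlapped, with a log2 fold change of -0.16 (SE 0.291, edgeR adjusted p = 0.706). Ifitm1 stood at 14.9, 41.3, 27.5 and 28.3 CPM in the A1/A2 libraries and at 32.0, 4.47, 15.0 and 12.8 in the EMP libraries. EMP libraries 1 and 3 lay within the A1/A2 range, and the log2 fold change was 0.82 (SE 0.519, edgeR adjusted p = 0.257). Without EMP library 1, Ifitm1 was called higher, at 1.40. Ifitm6 gave 22 transcripts in the A1/A2 group against 0 in the EMP group, at least 11.6-fold higher against the same floor, with 0 in A1/A2 library 1. Bst2, which encodes tetherin and holds budding virus at the surface, was read at 63.7, 69.5, 60.9 and 59.4 CPM in the A1/A2 libraries and at 43.3, 40.4, 37.8 and 48.9 in the EMP libraries. This gene had the highest mean level of the list over the 8 libraries. The groups did not overlap, and the log2 fold change of Bst2 was 0.58 (SE 0.110, edgeR adjusted p = 0.0023). The Ifitm genes are related in sequence, and the rule for counting reads shared between related genes is not given in the sources used here. The values of the single Ifitm genes are therefore uncertain. The same holds for Ifit3, Ifi205, Trim30a, Oas1a and the Slfn genes.

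Of the genes that block translation, Ifit1 encodes a protein that binds foreign RNA. Ifit1 stood at 14.9, 10.8, 35.6 and 13.1 CPM in the A1/A2 libraries and between 0.420 and 1.17 in the EMP libraries. The groups were far apart, and the log2 fold change of Ifit1 was 4.60 (SE 0.496, edgeR adjusted p = 7.27e-05). Ifit3 stood at 11.7 ± 5.17 against 0.505 ± 0.320 CPM (SD, n = 4), a log2 fold change of 4.41 (SE 0.450, edgeR adjusted p = 3.14e-05). Ifit2 gave 112 against 23 transcripts and was not tested, and EMP library 1 lay just above A1/A2 library 2. Eif2ak2 encodes PKR, the kinase that halts translation on double-stranded RNA. It was read at 34.2, 28.5, 29.4 and 25.7 CPM in the A1/A2 libraries and at 18.5, 20.6, 24.8 and 22.1 in the EMP libraries. The groups lay close but did not overlap, at a log2 fold change of 0.45 (SE 0.141, edgeR adjusted p = 0.0289). That call was lost when the genes were not filtered, without A1/A2 library 1 or 3 and without EMP library 1, 2 or 4. Of the 20 calls, that of Eif2ak2 had the highest adjusted p.

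Isg15 encodes a ubiquitin-like protein that is joined to newly made proteins, and Usp18 encodes the protease that removes it. Isg15 stood at 25.9, 5.54, 50.3 and 20.8 CPM in the A1/A2 libraries and at 0.631, 1.55, 0.188 and 1.25 in the EMP libraries. The spread among the A1/A2 libraries was wide, library 3 at the top and library 2 at the bottom, and all were above the EMP libraries. The log2 fold change of Isg15 was 4.78 (SE 0.771, edgeR adjusted p = 0.00232). Usp18 was not tested, with 95 against 18 transcripts, and A1/A2 library 2, at 0.277 CPM, fell below the EMP libraries.

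Among the 7 antiviral effectors, Trim30a, Mx1, Isg20, Zbp1 and Parp14 were called higher. Trim30a, a ubiquitin ligase, stood at 47.2, 23.3, 65.7 and 38.8 CPM in the A1/A2 libraries and at 6.10, 6.61, 12.8 and 6.77 in the EMP libraries. The groups did not overlap, and the log2 fold change was 2.41 (SE 0.337, edgeR adjusted p = 0.00071). Mx1 belongs to a family of GTPases that trap viral particles, and whether these cells make a working protein was not measured. Its transcripts were read at 6.29, 2.77, 11.4 and 5.71 CPM in the A1/A2 libraries and at 0 in all EMP libraries. With 77 transcripts against 0, the pooled level of Mx1 was at least 40.7-fold higher against 3 transcripts over the EMP group (edgeR adjusted p = 0.000507). Isg20, an exonuclease, Zbp1, a sensor of Z-form nucleic acids, and Parp14, an ADP-ribosyltransferase, had log2 fold changes of 2.45 (SE 0.663), 4.60 (SE 0.756) and 3.02 (SE 0.459). Isg20 was not called without EMP library 2. Rsad2 encodes viperin, which makes a chain-terminating nucleotide. It stood at 7.47, 16.3, 58.4 and 14.0 CPM in the A1/A2 libraries and at 5.26, 8.36, 8.08 and 7.77 in the EMP libraries. A1/A2 library 1 lay within the EMP range and library 3 far above all others, and the test did not call it (log2 fold change 1.68, SE 0.591, edgeR adjusted p = 0.0583). DESeq2 called Rsad2 higher, as did edgeR without A1/A2 library 1. Cmpk2, its neighbour in the genome, stood at 9.27 ± 4.23 against 4.90 ± 1.09 CPM with overlap (edgeR adjusted p = 0.0609), and it was called higher with no filter and without A1/A2 library 2.

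Of the 9 other members, 6 were called higher and the other 3 were too rare to be tested. Slfn1, of the schlafen family that restrains growth and translation, stood at 5.11, 8.59, 15.1 and 6.00 CPM in the A1/A2 libraries and at 0 in all EMP libraries. Its 106 transcripts against 0 put it at least 56.1-fold higher against the floor of 3 transcripts (edgeR adjusted p = 0.000175). Slfn2 was even over the A1/A2 libraries, at 28.3, 26.6, 30.1 and 30.3 CPM in the A1/A2 libraries against 4.84, 5.05, 2.82 and 2.01 in the EMP libraries. For Slfn2 the log2 fold change was 2.94 (SE 0.230, edgeR adjusted p = 4.23e-06). Ifi27l2a, a small mitochondrial protein, stood at 7.86, 2.77, 28.3 and 3.71 CPM in the A1/A2 libraries and gave 2 transcripts in all in the EMP libraries. The ratio was 95.2 with an exact 95% counting interval of 25.8 to 795 (edgeR adjusted p = 0.00346). Ifi205, of the family that senses DNA, stood at 26.7, 11.6, 32.3 and 15.4 CPM in the A1/A2 libraries and between 0.194 and 0.631 in the EMP libraries. The groups were far apart, with a log2 fold change of 5.57 (SE 0.471, edgeR adjusted p = 1.03e-05). Xaf1, which promotes cell death, stood at 22.8, 15.0, 29.7 and 29.7 CPM in the A1/A2 libraries and between 8.62 and 11.5 in the EMP libraries. The groups of Xaf1 did not overlap, at a log2 fold change of 1.27 (SE 0.223, edgeR adjusted p = 0.00145). Ifi35 was higher by a log2 of 1.16 (SE 0.231, edgeR adjusted p = 0.00303). Ifi44, Rtp4 and Slfn5 gave 32 against 2, 134 against 13 and 53 against 7 transcripts, and for each the A1/A2 libraries were all above the EMP libraries.

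Within the A1/A2 group, many members were highest in the same library. Library 3 was the highest of the 4 for 31 of the 39 members, and for 22.4% of the genes tested. Library 2 was the lowest for 24 of the 39, and for 27.8% of the genes tested, but Ifitm1 and Bst2 were highest there. Both counts of members include the 11 too rare to test, while the shares cover only genes tested. Library 3 also had the highest sums of monocyte markers, at 8.77 per 10000 against 5.37 to 6.10 in the other A1/A2 libraries, and of neutrophil markers, at 2.31 against 1.14 to 1.66. The part of these cells in the order of the libraries was not tested. Without library 3, 19 of the 20 members were still called higher, Eif2ak2 being the exception.

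To see which wells carried the members, the wells were placed in exclusive classes. A well belonged to the S100a8 class, named for a neutrophil and monocyte protein, at 10 or more S100a8 transcripts per 10000. The remaining wells belonged to the Ly6c2 or Ccr2 class, named for monocyte genes, at 1 or more per 10000 of both together, and then to a high Apoa1 class, named for an endoderm apolipoprotein, at 50 or more. The others were divided by whether a Cx3cr1 transcript, which marks A2 cells, or a Kit transcript, which marks A1 cells and progenitors, was read. These are transcripts in a well and not the gates of the sort. There were 12 S100a8 wells, 35 Ly6c2 or Ccr2 wells, 19 high Apoa1 wells, 145 Cx3cr1 wells without Kit, 22 Kit wells without Cx3cr1, 39 wells with both and 296 with none in the A1/A2 libraries. The EMP libraries held 0 S100a8 wells, 7 Ly6c2 or Ccr2 wells, 38 high Apoa1 wells and 6 Cx3cr1 wells without Kit. They also held 235 Kit wells without Cx3cr1, 23 wells with both and 346 with none, the largest class. Wells of a class were summed per library where there were at least 5. The genes that define the classes were not tested between them.

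Pooled over the A1/A2 libraries, the members summed to 96.5 per 10000 transcripts in the S100a8 wells and 37.6 in the Ly6c2 or Ccr2 wells. They summed to 5.76 in the Cx3cr1 wells, 3.29 in the Kit wells and 2.62 in the high Apoa1 wells. Wells with both Cx3cr1 and Kit stood at 6.13 and wells with none of these transcripts at 5.30. By library these ran from 4.67 to 10.7 and from 2.11 to 9.61, and the Cx3cr1 wells from 4.68 to 6.80. The S100a8 and the Ly6c2 or Ccr2 wells held 5.15% and 13.3% of the group's member transcripts with 0.340% and 2.26% of all its transcripts. The Cx3cr1 wells, which are deep, held 40.1% of the member transcripts with 44.4% of all transcripts. Wells with both held 18.5% with 19.2% of all transcripts, and wells with none held 17.0% with 20.5%. In the EMP libraries the members summed to 2.66 per 10000 in the Kit wells and 1.70 in the high Apoa1 wells. EMP wells with both Cx3cr1 and Kit stood at 2.69, those with none at 1.86 and those with Cx3cr1 alone at 1.88. The Ly6c2 or Ccr2 wells of the EMP libraries stood at 1.91 and hold 21 member transcripts. The high level in Ly6c2 or Ccr2 wells was thus read in the A1/A2 libraries and not in the few such wells of the EMP libraries, a difference that was not tested.

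**Figure D2:**
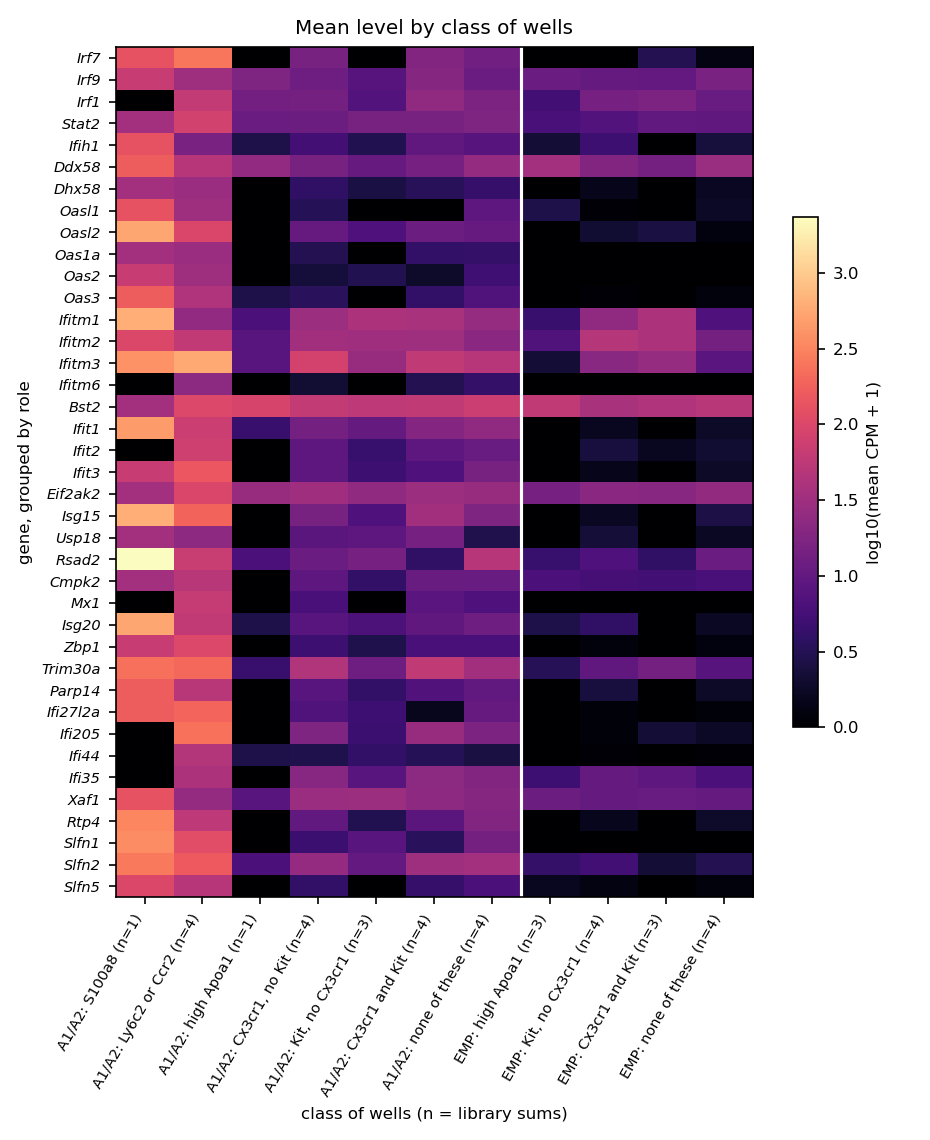
Mean level of each gene by class of wells, as log10 of mean CPM plus 1 (colour bar), with A1/A2 classes left and EMP classes right of the white line; n is the number of library sums of at least 5 wells behind a column. The S100a8 and the Ly6c2 or Ccr2 columns are the brightest, and Rsad2 in the S100a8 column, at 2333 CPM, is the highest value.

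Removing the S100a8 and the Ly6c2 or Ccr2 wells lowered the sum of the members and left most of the difference between the groups. The members then summed to 5.26, 4.34, 6.84 and 5.29 per 10000 in A1/A2 libraries 1 to 4, against 1.89 to 2.51 in the EMP libraries. Without these wells 15 members were called higher by edgeR's quasi-likelihood test, all 15 among the 20 called before, where 17.3% of genes were called higher. Of the other 5, Mx1, Zbp1, Ifi27l2a and Slfn1 became too rare to test and Eif2ak2 was not called. Irf7 kept a log2 fold change of 5.35 (SE 0.568), Isg15 of 4.13 (SE 0.646) and Ifitm3 of 2.11 (SE 0.272). When every well with any S100a8, Ly6c2 or Ccr2 transcript was removed, a setting chosen after the data were seen, 11 members were called higher, where 14.8% of genes were, and 7 became too rare to test. Irf7, Ifitm3, Trim30a and Ifi205 were among those 11.

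**Figure D3:**
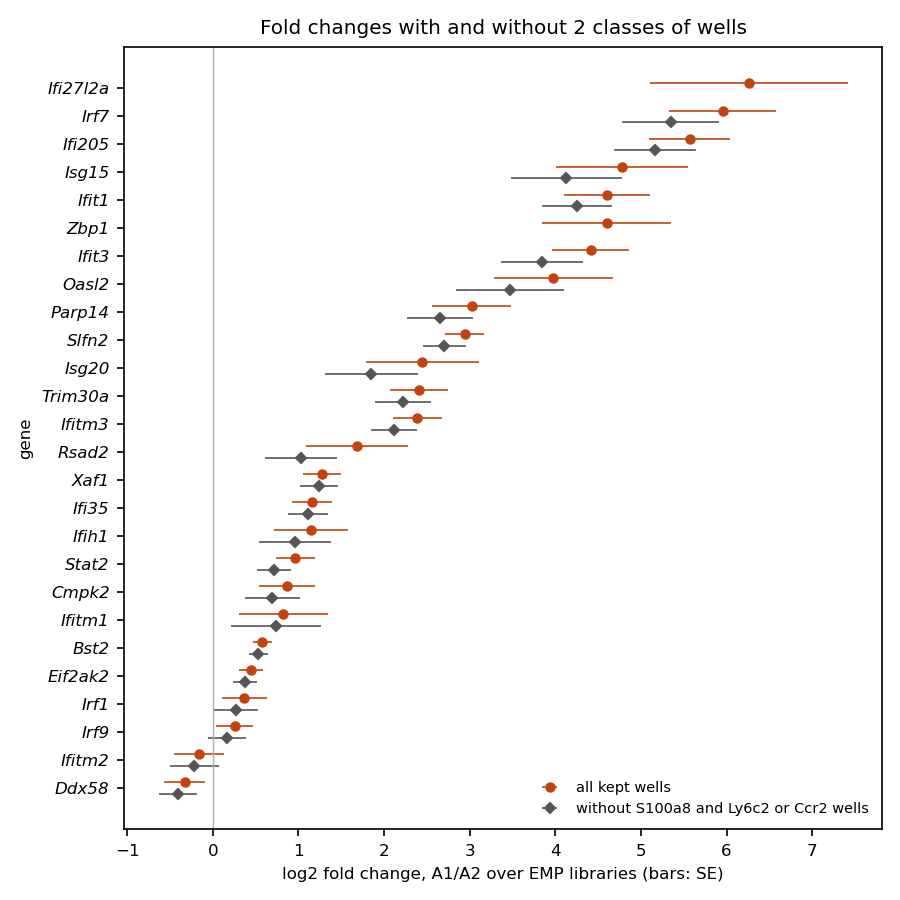
Log2 fold change of A1/A2 over EMP libraries for the tested genes with a transcript in the EMP libraries (bars: SE), with all kept wells (circles) and without S100a8 and Ly6c2 or Ccr2 wells (diamonds; none where a gene became too rare). Every diamond lies to the left of its circle, Irf7 moving from 5.96 to 5.35 and Isg15 from 4.78 to 4.13.

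The Ly6c2 or Ccr2 wells were then compared with the Cx3cr1 wells of the same A1/A2 libraries, with library as a block. The 4 sums held 7, 6, 17 and 5 wells and 88131, 22295, 145725 and 21944 transcripts, so that 1 transcript weighs most in libraries 2 and 4. The members summed to 32.2, 87.5, 37.4 and 10.5 per 10000 in these sums and to between 4.68 and 6.80 in the Cx3cr1 sums. The groups of sums did not overlap, although 25 of the 39 members were at 0 in library 4. All 39 were tested here, 23 were called higher and 0 lower, where 3.73% of 10338 genes were called higher and 4.31% lower. The median of all genes was a log2 of -0.24. The filter on rare genes kept a gene with enough transcripts in 1 sum of any class. A rare member could thus enter the test through a sum where it is high. Without the filter, 26 of 39 were called higher, where 1.92% of 21073 genes were.

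Ifi27l2a stood at 195, 252, 279 and 42.3 CPM in the Ly6c2 or Ccr2 sums of libraries 1 to 4 and at 1.55, 0, 18.3 and 4.23 in the Cx3cr1 sums. Its log2 fold change was the largest, at 5.21 (SE 0.610, edgeR adjusted p = 3.63e-06), and each Ly6c2 or Ccr2 sum was above the Cx3cr1 sum of its library. Slfn1 stood at 114, 220, 75.5 and 42.3 CPM against 0, 0.718, 8.22 and 6.04, a log2 fold change of 4.92 (SE 0.763, edgeR adjusted p = 0.000206). Zbp1 stood at 57.2, 189, 67.9 and 84.7 CPM against 5.41, 1.44, 6.39 and 2.42, a log2 fold change of 4.35 (SE 0.730, edgeR adjusted p = 4.6e-05). These 3 were higher in all 4 libraries. Ifi44 had a log2 fold change of 4.62 (SE 1.06), Oas3 of 4.28 (SE 0.846) and Oas2 of 4.27 (SE 1.03), each with 0 CPM in the Ly6c2 or Ccr2 sum of library 4. Irf7 stood at 252, 567, 226 and 0 CPM against 17.0, 7.18, 15.5 and 16.3, so that library 4 went the other way. Its log2 fold change was 3.97 (SE 0.759, edgeR adjusted p = 0.011). Ifitm3 stood at 435, 1197, 476 and 169 CPM against 91.2, 80.5, 74.0 and 88.2, higher in all 4 libraries, with a log2 fold change of 2.63 (SE 0.504, edgeR adjusted p = 0.00806). Isg15, Ifit3, Mx1, Oas1a, Oasl1, Isg20, Parp14, Rsad2, Trim30a, Ifi205, Rtp4, Slfn2, Slfn5, Irf1 and Stat2 completed the 23. The RNA sensors Ddx58, Ifih1 and Dhx58 were not called.

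The call depended on how the class was drawn. With 1 transcript of Ly6c2 or Ccr2 sufficient, a class of 86 wells with a median of 27775 transcripts took the place of 35 wells with a median of 6264. In that setting 0 of 30 tested members were called, 8 had an unadjusted p under 0.05, and 1 of 9175 genes (0.0109%) was called at all. At 1 per 10000, a single such transcript had already sufficed in wells of up to 10000 transcripts, so the looser setting added deeper wells. Why the calls were lost was not tested. The Ly6c2 or Ccr2 wells also differed in other markers. The 10 monocyte markers summed to between 21.5 and 103 per 10000 in their sums and to between 5.51 and 6.42 in the Cx3cr1 sums, with Vcan at 0 in the former. The 10 lymphoid markers summed to between 0 and 28.3 against 0.319 to 0.950. The macrophage markers summed to between 9.12 and 19.7 against 9.52 to 14.4, and the endoderm markers to between 60.2 and 84.9 against 57.8 to 121. The part of these other cells in the members' levels was not tested.

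The S100a8 wells were few and shallow, with a median of 2690 transcripts, and only library 3 had 5 or more of them. Its sum of 7 wells held 22903 transcripts, so 1 transcript is worth about 43.7 CPM before scaling. The test on this lone sum takes it to vary like the other sums. The filter was the same, so a rare member could enter the test through this sum alone. In it, 9 of 39 members were called higher than in the Cx3cr1 wells and 0 lower, where 1.52% of 10338 genes were called higher and 1.72% lower. Most genes were at 0 in so small a sum, and the median of all genes tested was a log2 of -4.41. With DESeq2's size factors that median was -0.08 and 15 members were called higher, where 3.75% of genes were. With 1 S100a8 transcript sufficient, where 3 libraries had enough wells, 1 of 30 tested members was called, Rsad2, where 2.44% of genes were called higher.

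Rsad2 stood at 2333 CPM in the S100a8 sum of library 3 and at 4.64, 7.90, 24.7 and 5.43 CPM in the Cx3cr1 sums of libraries 1 to 4. The log2 fold change of Rsad2 was 6.96 (SE 0.532, edgeR adjusted p = 1.13e-09). Ifitm1 stood at 624 CPM in the S100a8 sum, against 9.13 to 61.1 in the Cx3cr1 sums and 7.55 to 42.3 in the Ly6c2 or Ccr2 sums. The other members called were Slfn1 (log2 fold change 6.56), Oasl1 (5.19), Isg20 (5.18), Oas3 (5.08), Oasl2 (4.64), Rtp4 (4.59) and Slfn2 (3.49). Isg15, at 624 CPM in that sum, was not called by edgeR and was called by DESeq2. Irf1, Ifit2, Mx1, Ifi205, Ifi44, Ifi35 and Ifitm6 were at 0 in it, while Irf1, Mx1, Ifi205 and Ifi44 were among the members called higher in the Ly6c2 or Ccr2 wells. The S100a8 and the Ly6c2 or Ccr2 classes were not tested against each other. The S100a8 wells below the minimum in libraries 2 and 4, 2 and 3 in number, summed to 28.3 and 86.7 member transcripts per 10000, both above the 6.80 of the highest Cx3cr1 sum. The neutrophil markers summed to 89.9 per 10000 in the S100a8 sum of library 3, with Mmp9 and Ltf at 0, against 1.17 to 1.78 in the Cx3cr1 sums. Endoderm markers stood at 52.0 in the same sum, within reach of the other classes, and their part in it was not tested.

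Cx3cr1 wells and Kit wells of the A1/A2 libraries were compared next, although neither class is a gated population. The 9 erythroid markers summed to between 15.9 and 534 per 10000 in the Kit sums and between 1.32 and 28.4 in the Cx3cr1 sums. The Kit class can therefore not be read as A1 cells alone. The part of erythroid RNA in its levels was not tested. The members summed to between 4.68 and 6.80 per 10000 in the 4 Cx3cr1 sums and to between 2.81 and 4.15 in the 3 Kit sums, library 1 having too few Kit wells. The sums did not overlap. Of the 39 members, 0 were called in either direction by edgeR, where 4.81% of 10338 genes were called, and 0 by DESeq2. At an unadjusted p under 0.05 there were 3, Trim30a among them. Trim30a stood at 56.4, 21.6, 47.5 and 48.9 CPM in the Cx3cr1 sums and at 0, 16.8 and 18.3 in the Kit sums of libraries 2, 3 and 4. Its log2 fold change was 2.05 (SE 0.767, edgeR adjusted p = 0.149), and it was called when the genes were not filtered. Irf7 was at 0 CPM in all 3 Kit sums and between 7.18 and 17.0 in the Cx3cr1 sums, with an adjusted p of 0.398 (edgeR). Ifitm3 stood between 22.4 and 30.5 CPM in the Kit sums, below the 74.0 to 91.2 of the Cx3cr1 sums, with a log2 fold change of 1.69 (SE 0.825, edgeR adjusted p = 0.325). The 22 Kit wells limit this comparison, and the missing calls do not show that the classes are alike.

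High Apoa1 wells served as a class that should not hold blood cells. In the A1/A2 libraries only library 2 had 5 or more, so the test has no replicate of this class and takes the lone sum to vary like the others. Against the Cx3cr1 wells 2 of 39 members were called lower and 0 higher, where 5.37% of genes were called lower and 5.47% higher. These were Ifitm1, at 5.40 CPM in that sum against 9.13 to 61.1 (log2 fold change -3.01, SE 0.788, edgeR adjusted p = 0.00872), and Ifi35, at 0 against 13.6 to 26.3 (edgeR adjusted p = 0.0147). DESeq2 called neither of these 2 members. The threshold was then set at 20 Apoa1 transcripts per 10000, which gave all 4 libraries a sum. The class then took in 30 wells with Cx3cr1, 7 with Kit and 8 with both among its 161. In that setting 13 members were called lower and 1, Ddx58, higher, where 18.2% and 21.7% of genes were called. Irf7 was then lower by a log2 of -2.79 (SE 0.709), Ifitm3 by -2.17 (SE 0.522) and Trim30a by -1.92 (SE 0.408). Ddx58 was higher by 1.61 (SE 0.386).

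In the EMP libraries the high Apoa1 wells of libraries 1, 2 and 4 were compared with Kit wells. Of the members, 13 were abundant enough to be tested, 3 were called lower and 1 higher, where 10.2% and 8.69% of 9740 genes were. Ifitm2 stood at 9.25, 5.12 and 3.58 CPM in the high Apoa1 sums of libraries 1, 2 and 4 and at 50.1, 25.7, 65.9 and 46.0 in the Kit sums of libraries 1, 2, 4 and 3. Its log2 fold change was -3.03 (SE 0.597, edgeR adjusted p = 0.00712), and the sums did not overlap. Ifitm1 and Ifitm3 had log2 fold changes of -3.03 (SE 0.974) and -3.47 (SE 1.10), with adjusted p of 0.0459 and 0.0439 (edgeR). Ddx58 stood at 32.4, 34.1 and 32.2 CPM in the high Apoa1 sums and at 17.0 ± 4.24 (SD, n = 4) in the Kit sums, all 4 of them lower, a log2 fold change of 0.95 (SE 0.254, edgeR adjusted p = 0.0198). Leaving out 1 EMP library left between 1 and 2 of these 4 calls. With Apoa1 at 20 per 10000 there were 7 lower and 2 higher, Bst2 and Ddx58, where 28.8% and 29.1% of genes were called. At that threshold the high Apoa1 class of the EMP libraries grew from 38 to 283 wells. It took in wells with Kit, and the Kit class fell from 235 to 177 wells. Ddx58 was then higher by 2.12 (SE 0.228).

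The high Apoa1 wells were also compared between the groups, with 1 library sum in the A1/A2 group against 3 in the EMP group. Only 4 members were abundant enough to test. Of these, 0 were called by edgeR and 0 by DESeq2, where 0.38% of 7377 genes were called, and 1 had an unadjusted p under 0.05 with edgeR. At 20 Apoa1 transcripts per 10000, 3 of 13 tested members were called higher in the A1/A2 libraries, where 6.04% of genes were. These were Ifitm3 (log2 fold change 1.79, SE 0.371), Xaf1 (0.95, SE 0.272) and Bst2 (0.47, SE 0.141). In both groups the class at this threshold took in wells with Kit, as given above, and their part was not tested.

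The members were read unevenly over single wells. Shares of wells depend on depth, so each well was also thinned at random to 1000 transcripts. After thinning, 3 or more members were read in 46 of 568 A1/A2 wells (8.10%) and in 5 of 655 EMP wells (0.763%). They were read in 9 of 12 S100a8 wells, 11 of 35 Ly6c2 or Ccr2 wells, 12 of 145 Cx3cr1 wells, 0 of 22 Kit wells and 0 of 19 high Apoa1 wells of the A1/A2 libraries. By library the share with 3 or more was 5.30%, 8.39%, 14.2% and 5.42% in A1/A2 libraries 1 to 4. It was 0%, 0.565%, 0.621% and 2.04% in the same order of EMP libraries, so the groups did not overlap. For Irf7, a transcript was read after thinning in 3.08% ± 0.989 (SD, n = 4) of A1/A2 wells and in 0% of EMP wells, and before thinning in 9.45% and 0.752%. Free RNA was not measured. As a comparison, in the 161 high Apoa1 wells of the A1/A2 libraries at 20 per 10000, with a median of 10365 transcripts, an Irf7 transcript was read in 3.11% before thinning and in 0% after it. For Bst2 the shares before thinning were 38.8% in A1/A2 wells, 47.0% in EMP wells and 49.7% in such high Apoa1 wells. After thinning they were 4.64%, 3.65% and 2.48%, so the order of the 3 turned with depth.

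In 25 A1/A2 wells, 20 or more of the 39 members were read, up to 34. These wells were picked by the members themselves, so what follows describes them and tests nothing. They made up 4.40% of the kept A1/A2 wells and 5.09% of the transcripts, and held 38.9% of the member transcripts, or 43.7% without the Ifitm genes. In the EMP libraries 1 well reached 20 members, with 22, and it is the deepest of all, at 283412 transcripts. The 25 wells lay in all 4 A1/A2 libraries, 6, 4, 12 and 3 in libraries 1 to 4. They included 9 of 35 Ly6c2 or Ccr2 wells, 3 of 12 S100a8 wells, 6 of 145 Cx3cr1 wells, 3 of 39 wells with Cx3cr1 and Kit and 4 of 296 with neither. Their totals ran from 3909 to 163751 transcripts with a median of 9172, and their member levels from 12.0 to 245 per 10000 with a median of 100.3. So 13 of them held under 10000 transcripts, where the median A1/A2 well held 1 member and the highest EMP well 10.

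**Figure D4:**
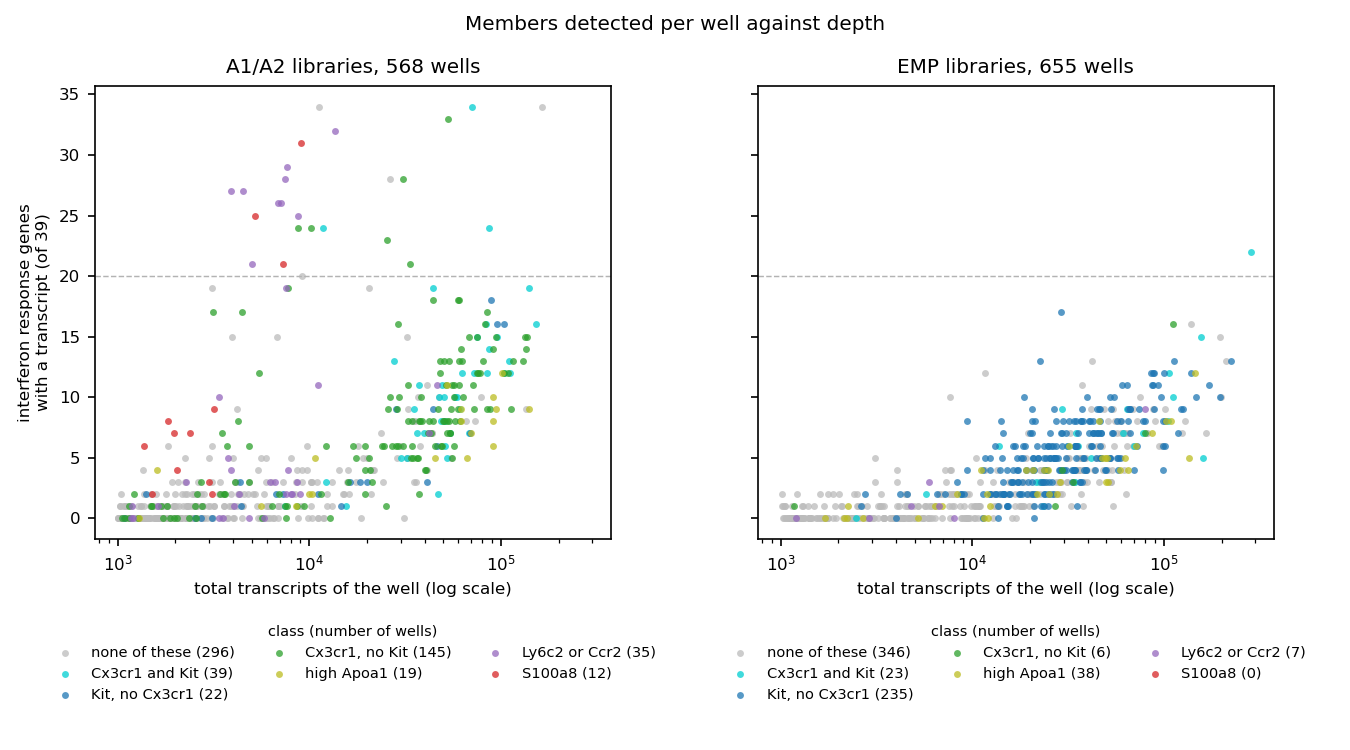
Number of the 39 genes with a transcript (vertical axis) against the total transcripts of the well (log axis), for A1/A2 wells on the left and EMP wells on the right, coloured by class; the dashed line is at 20 genes. In the A1/A2 libraries 25 wells lie on or above the line, 13 of them with under 10000 transcripts, and in the EMP libraries 1 well does.

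Within the 25 wells, Irf7 and Ifitm3 were read in every one. They held 74.0% of the A1/A2 transcripts of Irf7 and 29.8% of those of Ifitm3, a gene that is also spread over many other wells. Usp18 was the most concentrated member, with 82.1% of its transcripts in these wells, followed by Isg15 (80.1%) and Ifit3 (79.7%). At the other end were Ifitm1 (5.54%), Ifitm2 (9.20%), Xaf1 (13.8%), Irf9 (15.2%) and Bst2 (16.8%), which were read mostly elsewhere. Of these 5, Ifitm1, Ifitm2 and Irf9 were not called between the groups of libraries, and Xaf1 and Bst2 were. Of the 25 wells, 24 held a transcript of Csf1r, the macrophage growth factor receptor, 10 of Cx3cr1, 15 of Ly6c2 or Ccr2, 5 of S100a8, 6 of Kit and 12 of Cd74, an MHC class II chaperone. Y-linked transcripts stood at 0.303 per 10000 in these wells and at 0.513 in the 225 other A1/A2 wells at or above their median total. Xist stood at 1.21 and 0.862. A Y-linked transcript was read in 5 of the 25 wells and in 106 of the 225, and Xist in 17 and 142. The 225 were deeper, at a median of 41972 transcripts against 9172. What these differences reflect was not tested.

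The genes upstream of the members were measured alongside. Of the interferons themselves, Ifnk gave 3 transcripts in the A1/A2 group against 2 in the EMP group. Ifna16, from outside the list of 12 ligands, gave 0 and 1. The other listed ligands, Ifnb1 and Ifng among them, were not among the 23091 genes of the tables. Their levels can therefore not be given, and their absence from the cells was not tested. All 6 receptor chains were tested between the groups, and 3 were called higher in the A1/A2 libraries and 0 lower. The counts in this paragraph stand beside 17.3% of all genes tested called higher and 15.4% lower. Ifnar2, a chain of the type I receptor, stood at 73.5, 53.2, 63.5 and 76.0 CPM in the A1/A2 libraries and at 30.7, 26.6, 36.8 and 25.1 in the EMP libraries. The groups did not overlap, with a log2 fold change of 1.15 (SE 0.149, edgeR adjusted p = 0.000191). Ifngr2 and Ifngr1, the chains of the type II receptor, were higher by a log2 of 0.96 (SE 0.156) and 0.86 (SE 0.148). Of 9 signalling genes, 4 were called higher and 1 lower. Irf5, which drives inflammatory genes in macrophages, stood at 32.0 ± 6.03 against 1.75 ± 0.844 CPM, a log2 fold change of 4.15 (SE 0.268). Irf8, which directs myeloid fate, stood at 153 ± 37.5 against 21.1 ± 6.70 CPM, a log2 fold change of 2.84 (SE 0.242). Of 10 tested sensors and adaptors, 7 were called higher and 0 lower, among them Unc93b1, which delivers nucleic acid receptors to endosomes (log2 fold change 2.22, SE 0.240), Tlr7, a receptor for RNA (3.52, SE 0.457), and Aim2, a sensor of DNA (2.05, SE 0.276). Of 11 tested negative regulators, 4 were called higher and 0 lower, among them Samhd1, Ptpn1 and Ptpn6, by a log2 of 0.73, 0.80 and 0.73. The macrophage markers given above differ between the same libraries, and their part in these differences was not tested.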

How the data were processed

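Libraries were made with mCEL-Seq2, a single-cell method that tags each transcript with a well barcode and a random identifier. The authors deposited estimated counts, that is transcripts of each gene in each of 1536 wells, with no scaling for depth. Every entry returned a whole number of identifiers when the correction for collisions among 4096 identifiers was undone, at a tolerance of 1e-06. A deposited series table of 689 wells held identical values. BWA 0.6.2-r126 and Seurat were used per the submitters' processing notes. For the build, the annotation and the rule for shared reads, nothing is given in the sources used here.

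Wells under 1000 transcripts were left out. Sums of the estimated counts were formed for each library, or for each class with at least 5 wells in a library, and rounded to whole numbers. The sums were tested with edgeR 4.0.16 (robust quasi-likelihood fit, filterByExpr, TMM; R 4.3.3) and adjusted after Benjamini and Hochberg over all genes tested. Libraries were the replicates, library was a block within a group, and the comparison of the A1/A2 and EMP libraries had no block. A standard error is the size of the log2 fold change over the root of its F statistic. Alternatives were DESeq2 1.42.0 with its size factors, no filter on low genes, other thresholds for wells and classes, thinning to 1000 transcripts, and leaving out each library. The test was also run on simulated data, whose outcome is not given here and is not used as support. Exact counting intervals cover counting error only. Doublets were not called, since each well received 1 sorted cell. Python 3.11.15, pandas 2.3.3, scipy 1.17.1 and matplotlib 3.10.9 were used for summaries and figures.

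The members and the lists were chosen with earlier results of these data known. Named in full were the 8 members with the highest mean level, up to 6 members per direction with the largest change among those called in a comparison, and up to 3 genes of each pathway list with the smallest p between the groups. Further members are named by role. A gene that this rule selects is not reported here.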

Additional observations from a re-analysis of the deposited data

Results flagged for a closer look

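In groups of 4 libraries, a value was singled out when its gap to the nearest other library exceeded Dixon's 95% critical share of the range, which chance does in about 1 in 20 groups. Of 30 groups checked, 3 had such a library, all in the EMP group. Ddx58 stood at 29.9 CPM in EMP library 2, above the other EMP libraries. Ifitm3 stood at 5.44 CPM in the same library, below the others. Trim30a stood at 12.8 CPM in EMP library 3, above the others. EMP library 2 also had the highest sum of endoderm markers, at 245 per 10000, and the lowest of progenitor markers, at 3.06, and their part in its Ddx58 and Ifitm3 levels was not tested.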

How the results depend on the processing

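Between the A1/A2 and EMP libraries, the members called, 20 as reported, numbered 32 with no filter, where 9.28% of genes were called higher. They numbered 11 without wells with any S100a8, Ly6c2 or Ccr2 transcript, where 14.8% of genes were. With each library left out they numbered 19 to 27 of 28 or 33 tested members, where 12.8% to 18.1% of genes were. With the replicate block they numbered 23, Rsad2, Cmpk2 and Ifih1 being added, and the share of all genes called higher rose from 17.3% to 21.3%. Same-number libraries deviated together for numbers 1, 2 and 4 (r over 6193 genes of 0.357, 0.589 and 0.348) and not for number 3 (-0.03), so the numbers were not taken as pairs. For Cx3cr1 against Kit wells, 1 member was called higher with no filter, where 2.22% of genes were, and 0 with any library left out. For Ly6c2 or Ccr2 wells the 23 became 0 with any transcript sufficient, where 0.0109% of genes were called. After thinning, 2 of the 3 tested members were called higher, where 7.35% of 313 genes were. With a library left out, 18 to 22 members were called higher, where 2.42% to 3.47% of genes were. For S100a8 wells the 9 became 15 with DESeq2, 1 with any transcript and 2 after thinning, and 9 to 12 with a library left out. For high Apoa1 against Cx3cr1 wells the 2 became 1 with DESeq2, 4 with no filter, 14 at 20 Apoa1 transcripts per 10000, 1 with any transcript and 0 after thinning, and 2 to 5 with a library left out, 5 being without library 3. At the main threshold DESeq2 called Ifitm3 and neither Ifitm1 nor Ifi35, and without the block Ifitm1 was again not called. For high Apoa1 against Kit wells in the EMP libraries the 4 became 9 at 20 transcripts, where 29.1% of genes were called higher and 28.8% lower. With a library left out they became 1 to 2, where 1.33% to 10.4% of genes were called higher and 2.99% to 8.98% lower. Between the groups' high Apoa1 wells there were 3 at 20 transcripts, where 6.04% of genes were called higher. Without the block within libraries, 24 members were called higher in Ly6c2 or Ccr2 wells, where 4.03% of genes were. In high Apoa1 against Kit wells, 1 was then called higher and 2 lower, where 9.98% and 11.1% of genes were.

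The summed level of the A1/A2 libraries was 10.4 per 10000 as a mean over wells and 5.59 to 7.08 with a library left out. That of the EMP libraries was 1.70 without the Ifitm genes and 2.23 to 2.44 with a library left out. For 32 results of single members (the 8 with the highest level and up to 6 per direction called in each comparison), under the alternatives 305 kept direction and call, 34 lost the call, 1 gained it (Ifitm1 without EMP library 1, at 1.40) and 0 changed direction. Other members, not in this tally, gained calls as the report gives. The cause of these changes was not tested, beyond fewer wells or genes where a setting removes them. The S100a8 test without A1/A2 library 3, the high Apoa1 tests without A1/A2 library 2 and the replicate block between the high Apoa1 wells of the groups could not be fitted. After thinning, no member could be tested between the groups or in EMP wells. Depth limits the members with few EMP transcripts most: 7 members had 3 or fewer.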

Other observations

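Genes next to the members in the pathway were counted in the same comparison of the A1/A2 with the EMP libraries, where 17.3% of genes were called higher and 15.4% lower. Of 16 genes induced mainly by type II interferon, 6 were abundant enough to be tested and all 6 were called higher. Gbp3, a GTPase that attacks the vacuoles of intracellular microbes, stood at 9.44, 4.43, 5.51 and 7.71 CPM in the A1/A2 libraries and between 0.376 and 0.631 in the EMP libraries. Its log2 fold change was 3.61 (SE 0.392, edgeR adjusted p = 5.00e-05). The immunity-related GTPases Igtp and Irgm2 had log2 fold changes of 2.18 (SE 0.298) and 2.10 (SE 0.317). In all 3 the groups did not overlap and library 2 was the lowest of the A1/A2 libraries, while Gbp3 and Irgm2 were highest in library 1 and Igtp in library 3.

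Of 10 genes of MHC class I presentation, 5 were tested and 5 called higher. Psmb8, a subunit of the immunoproteasome, stood at 16.6 ± 5.41 against 0.803 ± 0.375 CPM (SD, n = 4), a log2 fold change of 4.33 (SE 0.373). B2m, the light chain of class I molecules, stood at 360, 257, 520 and 364 CPM in the A1/A2 libraries and at 124, 112, 128 and 121 in the EMP libraries, a log2 fold change of 1.63 (SE 0.174). Psmb10, another immunoproteasome subunit, was higher by 1.10 (SE 0.134). In the Ly6c2 or Ccr2 wells, where 3.73% of genes were called higher than in Cx3cr1 wells, 5 of 8 tested genes of this list were, and 3 of 10 of the type II list. Of 32 further interferon-induced genes, 23 were tested between the groups of libraries, 15 were called higher and 1, Trim25, lower. Gbp7 was higher by a log2 of 2.50 (SE 0.203), Ly6e, which guards against viral entry, by 2.00 (SE 0.178) and Tor3a by 2.29 (SE 0.231). In the Ly6c2 or Ccr2 wells Gbp7 and Tor3a were not called, at a log2 of -0.22 (SE 0.372) and 0.62 (SE 0.527), while Ly6e was higher by 2.04 (SE 0.215).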
